A study of Homo sapiens with 45 samples.

Results

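Integrins are the receptors that fasten cells to the extracellular matrix, each a pair of an alpha and a beta subunit, and laminins are the matrix proteins of basement membranes, each built from an alpha, a beta and a gamma chain. The 30 genes described here are 20 integrin subunits and 10 laminin chains, chosen by name. The arrays hold 19775 genes with a probe set annotated to them alone, among them 28 of the 30. ITGB6 had only 4 probe sets that also carry another gene symbol, and LAMA3 was not analysed here. Each gene was read from the probe set with the highest mean over all arrays. A gene was tested when its highest group mean exceeded 4.89, the median of all values, which is taken here as the level near background. This left 27 of the 30 and 15511 genes in all, and ITGA9, which averaged 4.62 at most, was not tested.

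RNA was measured on 45 arrays from 3 established human cancer cell lines, the ovarian lines HEY and SKOV3 and the prostate line PC3. Cells were transfected with 33 nM of a precursor of the microRNA (miRNA) miR-429, miR-205 or miR-203a, or of a control sequence (miR-NC), and were harvested 48 h later. The question is whether different cancer cells respond unequally when such miRNAs push them from a mesenchymal towards an epithelial state. The groups used are HEY miR-203a, HEY miR-205 and HEY miR-429 against HEY miR-NC, SKOV3 miR-203a, SKOV3 miR-205 and SKOV3 miR-429 against SKOV3 miR-NC, and PC3 miR-203a, PC3 miR-205 and PC3 miR-429 against PC3 miR-NC, with 3 arrays each. All of these cells shared one serum-containing medium and one lipid reagent, which the miR-NC cells also received, and each cancer type is represented by 1 or 2 established lines at a single time. A further 3 arrays per line are labelled untransfected. The labels do not state that the arrays of a group were separate cultures, so p-values measure the spread between arrays only. In bulk RNA, fewer cells that express a gene and less RNA per cell cannot be told apart.

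The precursors yield these mature miRNAs, shown because their seeds (bases 2 to 8, in capitals) set which transcripts a miRNA can pair with; the labels do not name the arm, and the usual guide strand is given, from RefSeq on GRCh38.p14.
hsa-miR-203a-3p: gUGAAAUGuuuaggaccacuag
hsa-miR-205-5p: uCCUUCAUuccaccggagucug
hsa-miR-429: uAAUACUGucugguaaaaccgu
The 3 seeds differ from each other. The mature sequences lie at chr14:104117469-104117490, chr1:209432166-209432187 and chr1:1169055-1169076 on the plus strand, in the order given.

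Integrins pass information both ways across the membrane: talin and kindlin bind the beta subunit's tail to switch the receptor on, and ligand binding gathers kinases at focal adhesions. In epithelia, the integrin of ITGA6 and ITGB4 binds a laminin that holds the LAMA3 and LAMB3 chains and anchors hemidesmosomes, while mesenchymal cells rely more on the fibronectin and collagen receptors. miR-429 belongs to the miR-200 family, which with miR-205 is known for repressing ZEB1 and ZEB2, factors that silence epithelial genes through E-box sequences in their promoters.

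Levels are log2 intensities, and a change is the difference of group means in log2 units, given with the standard error (SE) of a limma fit over all arrays (n = 3 per group). A gene is called higher or lower when its p-value, adjusted by Benjamini-Hochberg over the 15511 genes, is below 0.05. Markers fit the lines only in part. PAX8, an ovarian marker, averaged 10.42 ± 0.08 in HEY and 10.73 ± 0.07 in SKOV3 under miR-NC (SD, n = 3), against 6.00 ± 0.14 in PC3. The prostate markers were not higher in PC3 than in SKOV3: under miR-NC HOXB13 averaged 6.56 ± 0.63 in PC3 and 6.70 ± 0.21 in SKOV3, and KLK3 4.30 ± 0.31 in PC3 and 6.87 ± 0.10 in SKOV3. The labels do not say whether PC3 cells express KLK3, so its low level is not read against the PC3 label. The leukocyte marker PTPRC stayed at or below 3.29 in every group, but 2 of 3 endothelial markers were high in a line: CDH5 averaged 9.89 ± 0.16 in HEY and PECAM1 9.05 ± 0.10 in PC3 under miR-NC. Of the 9 arrays labelled untransfected, those labelled HEY correlated with SKOV3 miR-NC at 0.900 to 0.935 across the 15511 tested genes and with HEY miR-NC at 0.662 to 0.728. Those labelled PC3 correlated with HEY miR-NC at 0.929 to 0.934 and with PC3 miR-NC at 0.782 to 0.788. Those labelled SKOV3 were nearest to SKOV3 miR-NC, at 0.794 to 0.802, but had HOXB13 at 11.73 ± 0.09 and ERBB2, which SKOV3 is known to overexpress, at 7.60 ± 0.38, where SKOV3 miR-NC had 11.33 ± 0.08. The arrays labelled untransfected therefore enter no comparison. They add to the pooled spread, and they count in the choice of probe set, in the filter and in the median of all values.

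A control probe set at the 5′ end of the GAPDH transcript split the transfected arrays as well. In HEY it averaged 8.95 ± 0.40 with miR-203a, 12.28 ± 0.32 with miR-205 and 6.25 ± 0.16 with miR-429, against 8.37 ± 0.29 with miR-NC (SD, n = 3). In PC3 it averaged 9.99 ± 0.38 with miR-203a, 8.70 ± 0.58 with miR-205 and 4.54 ± 1.02 with miR-429, against 5.04 ± 1.18 with miR-NC. In SKOV3 the 4 transfected groups lay between 13.70 and 13.75, and the GAPDH 3′ probe set lay there between 13.70 and 13.81, so both may be at the top of their range and no match between SKOV3 groups can be read from them. The 3′ probe set moved in the other lines too. In HEY it averaged 12.35 ± 0.18 with miR-203a, 13.76 ± 0.06 with miR-205 and 13.59 ± 0.02 with miR-429, against 12.28 ± 0.11 with miR-NC. In PC3 it averaged 12.33 ± 0.18 with miR-203a, 12.14 ± 0.11 with miR-205 and 10.00 ± 0.29 with miR-429, against 10.32 ± 0.18 with miR-NC. GAPDH level and RNA quality therefore cannot be told apart in the GAPDH 5′ signal. It was higher in HEY miR-205, PC3 miR-203a and PC3 miR-205 and lower in HEY miR-429 than in miR-NC of the same line. The ACTB 5′ control probe set averaged 7.00 with miR-203a, 7.46 with miR-205 and 5.27 with miR-429 in HEY, against 6.24 with miR-NC. In PC3 it averaged 8.44, 7.45 and 4.17 in that order, against 4.72 with miR-NC. In SKOV3 miR-NC it averaged 13.73. The ACTB 3′ probe set lay between 13.41 and 14.06 in the transfected groups and may be at the top of its range. The part of RNA quality was not tested.

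Over the 9 comparisons with miR-NC, 101 of 243 results for the 27 tested members were called, 61 higher and 40 lower. Of the 101, 38 were at least 2-fold. With miR-203a in HEY, SKOV3 and PC3, 0, 3 and 6 members were, against 378, 361 and 3240 of all 15511 tested genes. With miR-205 it was 7, 4 and 7 members, against 5169, 767 and 2542 genes. With miR-429 it was 5, 4 and 2 members, against 3392, 665 and 1580 genes. With miR-203a in HEY, 2 members were higher (background: 5.87% of all tested genes) and 2 lower (7.32%), 4 in all (13.2%). In SKOV3 miR-203a 4 were higher (7.11%) and 3 lower (4.91%), 7 in all (12%). In PC3 miR-203a 9 were higher (31.2%) and 5 lower (25%), 14 in all (56.2%). Each percentage in brackets is the share of all tested genes called the same way. With miR-205 in HEY, 11 were higher (33.7%) and 5 lower (32.3%), 16 in all (66%). In SKOV3 miR-205 6 were higher (16.9%) and 1 lower (8.83%), 7 in all (25.8%). In PC3 miR-205 13 were higher (28.8%) and 5 lower (19.7%), 18 in all (48.5%). Rises outnumbered falls with miR-205 in every line, among the members as among all tested genes. With miR-429 in HEY, 9 were higher (21.1%) and 7 lower (35.8%), 16 in all (56.9%). In SKOV3 miR-429 4 were higher (15%) and 5 lower (7.24%), 9 in all (22.2%). In PC3 miR-429 3 were higher (16.4%) and 7 lower (29.5%), 10 in all (45.9%). The members' shares ran from 14.8% (HEY miR-203a) to 66.7% (PC3 miR-205) and no test was made of them. The SKOV3 miR-203a count of 7 fell to 4 without SKOV3 miR-203a replicate 2 or any 1 of the SKOV3 miR-NC arrays. Calls went both ways for 12 members, only up for 9 and only down for 5, and ITGA7, a laminin receptor subunit of muscle, was called nowhere. This split was not computed for all tested genes.

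The split in PC3 miR-429 depends on scaling. The median change there was -0.12 over all tested genes and -0.31 over all probe sets. Centring takes out the median of each array over all probe sets, so it moves the tested genes by more than their own median change. After centring, 8 members were higher and 1 lower, or 4 and 4 after quantile normalization. The shares of all tested genes called under these scalings are not given here. For tested genes, the median change was -0.15 in HEY miR-429 and under 0.1 in size in the other 7 comparisons. Quantile normalization gave 2 higher and 1 lower in HEY miR-203a and 3 higher and 4 lower in SKOV3 miR-203a, and centring gave 5 higher and 4 lower in SKOV3 miR-429.

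**Figure D1:**
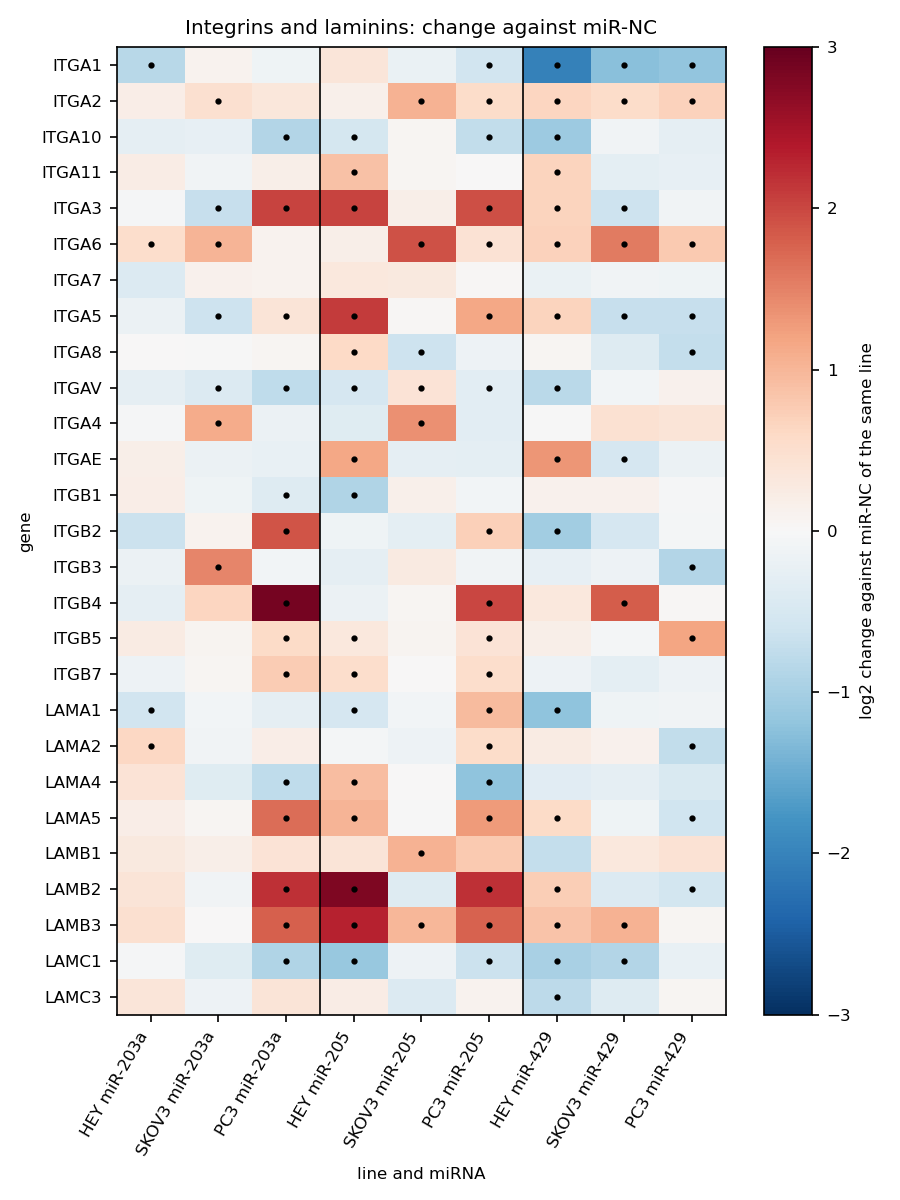
Log2 change against miR-NC of the same line for the 27 tested integrins and laminins (rows, ordered by role) in the 9 line and miRNA pairs (columns), with dots on the 101 called results. ITGA1 is blue and ITGA2 and ITGA6 are red in all 3 miR-429 columns, and the strongest reds, for ITGB4, LAMB2 and LAMB3, lie in PC3 miR-203a, HEY miR-205 and PC3 miR-205.

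Among the collagen-binding alpha subunits, ITGA1 fell and ITGA2 rose with miR-429 in every line. The genes are neighbours on chromosome 5 (GRCh38.p14, chr5:52787916-52959209 and chr5:52989352-53094779) and both encode collagen receptors that pair with ITGB1. ITGA1 read 3.65, 4.44 and 4.20 with miR-429 in HEY, against 5.90, 6.20 and 6.26 with miR-NC. In SKOV3 it read 4.80, 4.78 and 4.59 with miR-429, against 5.95, 5.97 and 6.00 with miR-NC. In PC3 the values were 6.41, 6.19 and 6.60 with miR-429, against 7.41, 7.84 and 7.51 with miR-NC. All miR-429 arrays lay below all miR-NC arrays of their line. HEY changed by -2.03 ± 0.24 (adjusted p = 5.49e-09), SKOV3 by -1.25 ± 0.24 (adjusted p = 0.000139) and PC3 by -1.19 ± 0.24 (adjusted p = 0.000132). The miR-429 means in HEY and SKOV3 were near background, so only the PC3 change is given as a fold, 2.28-fold lower, and it was -0.78 after centring. Of the 3 ITGA1 probe sets, 3 were called lower with miR-429 in HEY and 2 each in SKOV3 and PC3. Falls were not confined to miR-429. In HEY miR-205 the 2 probe sets not used gave -1.64 and -1.18, both called lower, and the one used 0.36, not called. In PC3 miR-203a they gave -2.45 and -1.23, both called lower, and the one used -0.14, not called. In PC3 miR-205 they gave -3.03 and -0.74, and the one used -0.57, called lower. With miR-203a or miR-205 in SKOV3 no ITGA1 probe set was called.

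ITGA2 read 9.47, 9.73 and 9.53 with miR-429 in HEY, against 8.92, 9.01 and 8.88 with miR-NC. In SKOV3 it read 7.63, 7.42 and 7.46 with miR-429, against 6.89, 6.96 and 7.01 with miR-NC. In PC3 it read 11.03, 11.08 and 11.27 with miR-429, against 10.57, 10.50 and 10.26 with miR-NC. The miR-429 arrays lay above the miR-NC arrays in each line. The HEY rise was 0.64 ± 0.16 (adjusted p = 0.000834). The SKOV3 rise was 0.55 ± 0.16 (adjusted p = 0.00934) and the PC3 rise 0.68 ± 0.16 (adjusted p = 0.000713). The second ITGA2 probe set rose by 2.56 in HEY but differed by 0.06 in SKOV3 and by 0.00 in PC3, and the SKOV3 call was lost without SKOV3 miR-429 replicate 1 (adjusted p = 0.0555) or with the mean of both probe sets (0.31, adjusted p = 0.0687). Being called lower in all 3 lines with miR-429 was true of 2.04% of tested genes, and called higher of 1.59%.

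ITGA2 also rose with miR-205, to 8.11, 7.87 and 8.04 in SKOV3, a change of 1.05 ± 0.16 (adjusted p = 2.70e-06) with no overlap with miR-NC. The second ITGA2 probe set gave 0.07 there and was not called. ITGA1 was not called there either (-0.19 ± 0.24). In HEY miR-203a, ITGA1 read 5.40, 4.92 and 5.52, below the miR-NC arrays given above, a change of -0.84 ± 0.24 (adjusted p = 0.0147). That call was lost without HEY miR-NC replicate 2, HEY miR-NC replicate 3 or HEY miR-203a replicate 2 (adjusted p up to 0.113), after quantile normalization (0.069) and in a fit of HEY alone (0.189).

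ITGA10 and ITGA11, collagen receptor subunits of cartilage and fibroblasts, were dim. ITGA10 was called lower in 4 comparisons and higher in none, with its largest change in HEY miR-429: 3.04, 3.58 and 4.10, against 4.76, 4.26 and 4.97 with miR-NC, -1.09 ± 0.20 (adjusted p = 1.70e-05). Both means were near background, so the size of that change is uncertain. ITGA10 was also called lower in PC3 miR-203a (-0.88), PC3 miR-205 (-0.74) and HEY miR-205 (-0.53), the last again near background. GAPDH 5′ signal was higher in these 3 comparisons, and its part was not tested. ITGA11 was called higher in HEY miR-205 (0.87 ± 0.16) and HEY miR-429 (0.66 ± 0.16), with means of at most 4.73 in the 3 groups involved.

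**Figure D2:**
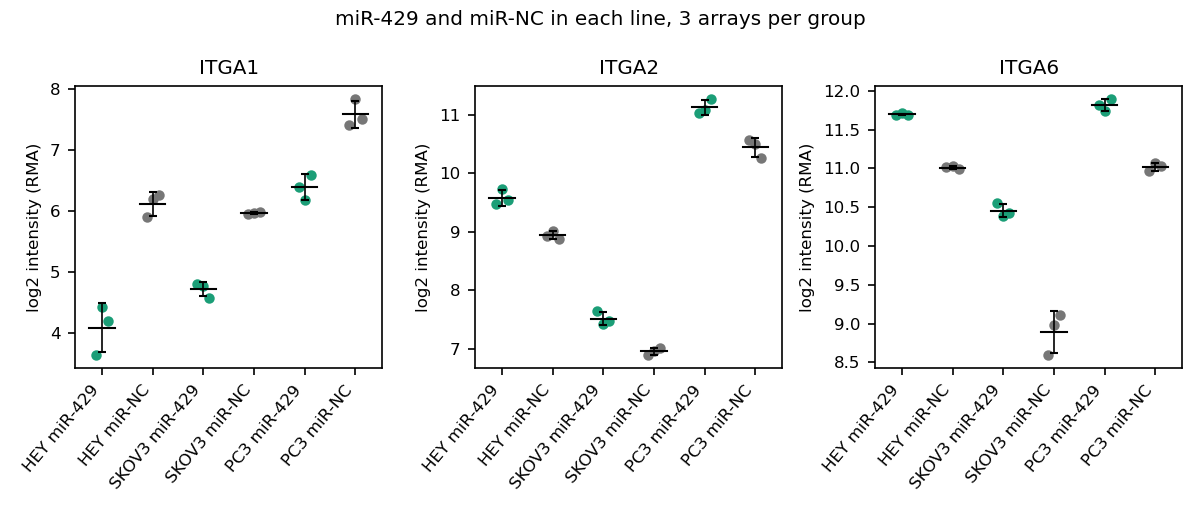
Log2 intensity of ITGA1, ITGA2 and ITGA6 on each array with miR-429 (green) and miR-NC (grey) in HEY, SKOV3 and PC3, with bars at the mean and whiskers of 1 SD (n = 3). The miR-429 arrays of ITGA1 lie below and those of ITGA2 and ITGA6 above the miR-NC arrays of the same line, without overlap.

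The laminin receptor subunit ITGA6 was called higher in 7 of the 9 comparisons on the probe set used, and lower in none. How many of all tested genes were called higher as often was not computed. ITGA6 rose most in SKOV3. In SKOV3 it read 10.06, 9.91 and 9.79 with miR-203a, 10.84, 10.83 and 10.73 with miR-205 and 10.55, 10.39 and 10.43 with miR-429, against 8.60, 8.98 and 9.11 with miR-NC. All 9 miRNA arrays lay above the 3 miR-NC arrays that they share as controls. The changes were 1.03 ± 0.12 (adjusted p = 5.84e-08), 1.91 ± 0.12 (adjusted p = 1.24e-14) and 1.56 ± 0.12 (adjusted p = 2.91e-12), or 2.04-fold, 3.75-fold and 2.95-fold higher. Both ITGA6 probe sets were called higher in each of these 3 comparisons.

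In HEY, ITGA6 read 11.47, 11.61 and 11.52 with miR-203a and 11.69, 11.71 and 11.69 with miR-429, against 11.02, 11.03 and 10.99 with miR-NC. These are changes of 0.52 ± 0.12 (adjusted p = 0.00271) and 0.69 ± 0.12 (adjusted p = 1.05e-05), and miR-205 gave 0.17 ± 0.12 without a call. In PC3 it read 11.82, 11.73 and 11.90 with miR-429, against 10.97, 11.07 and 11.03 with miR-NC, a change of 0.79 ± 0.12 (adjusted p = 2.91e-06) that was 1.20 after centring. With PC3 miR-205 it rose by 0.43 ± 0.12, and with PC3 miR-203a the change was 0.11 ± 0.12, not called. The second ITGA6 probe set rose by 1.12 in PC3 miR-203a, called higher, and by 2.67 in HEY miR-429. In HEY miR-205 the second probe set gave -0.24, not called. ITGA6 (GRCh38.p14, chr2:172427336-172506459) was among the 14 members above 4.89 in all 15 groups.

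ITGA3, whose product with ITGB1 binds laminins at the base of epithelia, moved in opposite directions. It read 8.97, 8.95 and 8.77 in PC3 miR-203a and 8.64, 8.92 and 8.81 in PC3 miR-205, against 6.66, 6.91 and 7.02 in PC3 miR-NC. In HEY miR-205 it read 9.89, 9.52 and 9.63, against 7.69, 7.66 and 7.62 in HEY miR-NC. These 3 rises, with no overlap between groups, were 2.03 ± 0.22 (adjusted p = 7.34e-10), 1.93 ± 0.22 (adjusted p = 3.20e-09) and 2.02 ± 0.22 (adjusted p = 3.34e-10), or 4.09-fold, 3.81-fold and 4.06-fold, in the comparisons with higher GAPDH 5′ signal. It was also called higher in HEY miR-429 (0.66 ± 0.22), where that signal was lower. In SKOV3 ITGA3 read 8.26, 8.37 and 8.46 with miR-203a and 8.66, 8.33 and 8.34 with miR-429, against 9.08, 9.12 and 8.98 with miR-NC. It fell by 0.70 ± 0.22 (adjusted p = 0.0283) with miR-203a and by 0.61 ± 0.22 (adjusted p = 0.0382) with miR-429. The first of these calls was lost in 5 of 6 refits without 1 array, all but the one without SKOV3 miR-203a replicate 3 (adjusted p up to 0.103). ITGA3 has 1 probe set, of a class that may bind several transcripts (names ending in _s_at), so no other was compared.

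Of the subunits that bind fibronectin and other ligands with an RGD motif, ITGA5, the fibronectin receptor subunit, had the widest range. It read 11.47, 11.21 and 11.23 in HEY miR-205, against 9.20, 9.03 and 9.37 in HEY miR-NC, a change of 2.11 ± 0.17 (adjusted p = 1.34e-13), or 4.30-fold. In PC3 miR-205 it rose by 1.15 ± 0.17 (adjusted p = 3.64e-07), while in SKOV3 miR-205 it differed by 0.03 ± 0.17. GAPDH 5′ signal was higher in the first 2 of these comparisons, and its part was not tested. With miR-429 it rose in HEY (0.67 ± 0.17) and fell in SKOV3 (-0.69 ± 0.17). In PC3 miR-429 its change was -0.68 ± 0.17, called, but ITGA1 alone stayed called lower there after centring. ITGAV, which binds vitronectin and latent TGF-beta, was called lower in 5 comparisons, by 0.31 to 0.80, and higher in SKOV3 miR-205 (0.40 ± 0.12). ITGA8, a nephronectin receptor subunit, was called higher in HEY miR-205 (0.59 ± 0.19) and lower in SKOV3 miR-205 (-0.61 ± 0.19) and PC3 miR-429 (-0.72 ± 0.19), near background in the last 2 except in PC3 miR-NC.

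ITGA4, which binds VCAM1 and fibronectin and is best known from leukocytes, rose in SKOV3 alone among the lines. It read 5.71, 5.97 and 5.85 with miR-203a and 6.14, 5.93 and 6.22 with miR-205, against 4.71, 4.70 and 4.77 with miR-NC. The arrays did not overlap, and the changes were 1.11 ± 0.17 (adjusted p = 9.05e-06) and 1.37 ± 0.17 (adjusted p = 1.07e-07) above a miR-NC mean near background. A second ITGA4 probe set rose by 1.33 and 1.25. The response to miR-205 differed between lines (F-test adjusted p = 5.48e-08), with -0.37 in HEY and -0.32 in PC3, and so did that to miR-203a (5.52e-05).

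ITGAE, the E-cadherin receptor subunit of lymphocytes in epithelia, read 10.32, 10.49 and 10.43 in HEY miR-429, against 9.16, 9.13 and 8.95 in HEY miR-NC. The change was 1.33 ± 0.16 (adjusted p = 4.48e-09), or 2.52-fold, with no overlap. In SKOV3 miR-429 it fell by 0.51 ± 0.16 from the highest level of any line, 11.41 ± 0.06 under miR-NC (SD), and the lines differed (F-test adjusted p = 1.54e-08). It also rose in HEY miR-205 (1.16 ± 0.16). PTPRC and the other 4 measured leukocyte markers did not exceed 5.37 in any group.

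Among the beta subunits, ITGB4, the partner of ITGA6 in hemidesmosomes, gave the largest rise of any member. It read 9.82, 9.46 and 9.52 in PC3 miR-203a and 8.66, 8.48 and 9.01 in PC3 miR-205, against 6.73, 6.83 and 6.60 in PC3 miR-NC. These are changes of 2.88 ± 0.26 (adjusted p = 1.14e-11), or 7.35-fold, and 2.0 ± 0.26 (adjusted p = 4.97e-08), or 3.99-fold, both beside a higher GAPDH 5′ signal. In SKOV3 it read 9.32, 9.09 and 9.18 with miR-429, against 7.46, 7.35 and 7.37 with miR-NC, a change of 1.81 ± 0.26 (adjusted p = 1.34e-06), or 3.50-fold. No pair of groups overlapped.

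The 5 ITGB4 probe sets did not move together. In PC3 miR-203a 4 of 5 were called higher, in PC3 miR-205 3 and in SKOV3 miR-429 2. The only one outside the classes that may bind several transcripts (names ending in _s_at or _x_at) gave 0.25, 0.50 and -0.12 in the same order, none of them called, and the last turned in sign. In HEY, where ITGB4 on the probe set used averaged 4.85 ± 0.10 under miR-NC (SD), that probe set was called with no miRNA, although the one outside these classes was called higher with miR-205 (0.70).

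ITGB3, which with ITGAV forms the classic vitronectin receptor, read 7.95, 7.41 and 7.83 in SKOV3 miR-203a, against 6.44, 6.44 and 5.92 in SKOV3 miR-NC. It rose by 1.46 ± 0.23 (adjusted p = 1.19e-05), or 2.76-fold, without overlap, and 3 of its probe sets were called higher. The other miRNAs left SKOV3 ITGB3 uncalled on the probe set used (0.26 ± 0.23 with miR-205 and -0.16 ± 0.23 with miR-429). With miR-205, however, 1 of its 7 probe sets was called higher in SKOV3. On the probe set used, the response to miR-203a differed between lines (F-test adjusted p = 8.66e-05). In PC3 miR-429 it read 3.76, 3.49 and 3.92, against 5.02, 4.0 and 4.77 with miR-NC, a change of -0.87 ± 0.23 (adjusted p = 0.00233) near background in both groups. That call was lost after centring (-0.47, adjusted p = 0.0835) and quantile normalization (-0.41, adjusted p = 0.176).

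ITGB5, a vitronectin receptor subunit, read 10.93, 10.86 and 11.05 in PC3 miR-429, against 10.02, 9.74 and 9.54 in PC3 miR-NC. It rose by 1.18 ± 0.13 (adjusted p = 3.49e-09), or 2.27-fold, on the probe set used and by 0.71 and 0.85 on a pair of others, but the fourth, the only one not in a class that may cross-hybridise, gave -0.06. ITGB2, the leukocyte beta subunit, read 7.55, 7.56 and 7.22 in PC3 miR-203a, against 4.65, 5.93 and 6.08 in PC3 miR-NC, where 1 array stood apart. Its change was 1.89 ± 0.26 (adjusted p = 1.39e-07), and in HEY miR-429 it fell by 1.03 ± 0.26. ITGB7, another leukocyte subunit, was called higher in the 3 comparisons with higher GAPDH 5′ signal, by 0.52 to 0.77, with overlapping arrays in HEY miR-205.

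ITGB1, the shared partner of the collagen, laminin and fibronectin receptors, fell by 0.90 ± 0.11 in HEY miR-205 (adjusted p = 2.88e-09) and by 0.40 ± 0.11 in PC3 miR-203a. Its 7 probe sets disagreed: in PC3 miR-203a, 4 were called lower and 1 higher. In HEY miR-429, 3 were called higher and 1 lower, while the one used gave 0.12 ± 0.11, not called.

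**Figure D3:**
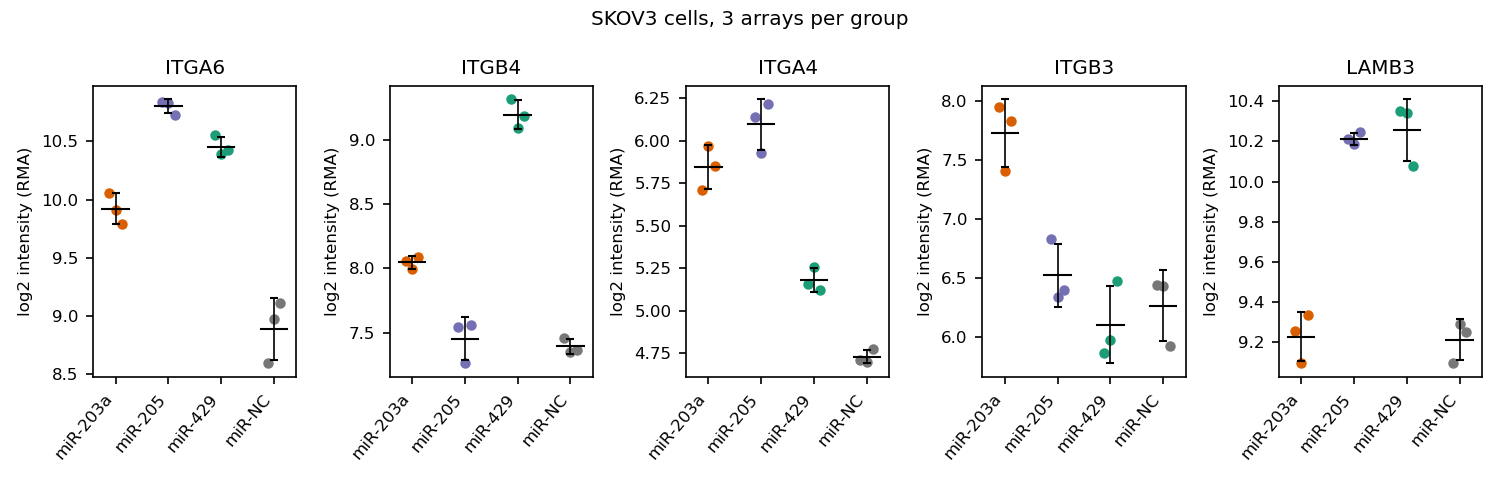
Log2 intensity of ITGA6, ITGB4, ITGA4, ITGB3 and LAMB3 on each SKOV3 array with miR-203a, miR-205, miR-429 and miR-NC, with bars at the mean and whiskers of 1 SD (n = 3). ITGA6 is above miR-NC with all 3 miRNAs, ITGA4 with miR-203a and miR-205, LAMB3 with miR-205 and miR-429, ITGB4 most with miR-429 and ITGB3 with miR-203a.

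The laminin alpha chains moved by line. LAMA1, the chain of embryonic basement membranes, read 7.47, 6.99 and 7.24 in HEY miR-429, against 8.55, 8.15 and 8.61 in HEY miR-NC. It fell by 1.20 ± 0.18 (adjusted p = 8.19e-07), 2.30-fold, with no overlap. In HEY miR-203a it read 7.75, 7.78 and 8.08, a change of -0.57 ± 0.18 (adjusted p = 0.0333), which was lost in 4 of 6 refits without 1 array: HEY miR-NC replicate 1 or 3, or HEY miR-203a replicate 1 or 2 (adjusted p up to 0.144). It was also lost in a fit of HEY alone (0.0743) and with the mean of its probe sets (0.133). LAMA1 fell in HEY miR-205 too (-0.49 ± 0.18) and rose in PC3 miR-205 (0.96 ± 0.18) above a miR-NC mean of 4.88 ± 0.44 (SD), near background.

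LAMA2, the chain of muscle and nerve, read 5.68, 5.57 and 5.30 in HEY miR-203a, against 5.03, 5.09 and 4.57 in HEY miR-NC, a rise of 0.62 ± 0.16 (adjusted p = 0.00846). The call was lost without HEY miR-NC replicate 3 or HEY miR-203a replicate 1 (adjusted p up to 0.0975), in a fit of HEY alone (0.0754) and on a probe set outside the cross-hybridising classes (0.29, adjusted p = 0.359). LAMA4, a chain of vessel walls, rose in HEY miR-205 by 0.93 ± 0.24 (adjusted p = 0.000836) and fell in PC3 miR-205 by 1.21 ± 0.24 (adjusted p = 6.31e-05). The difference between lines in its response to miR-205 had an F-test adjusted p of 4.83e-06. In PC3 miR-205 the other 2 LAMA4 probe sets above the filter gave 0.04 and -0.40, not called.

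LAMA5, the widespread epithelial alpha chain, rose in PC3 miR-203a (1.68 ± 0.21), PC3 miR-205 (1.28 ± 0.21), HEY miR-205 (1.02 ± 0.21) and HEY miR-429 (0.57 ± 0.21), with GAPDH 5′ signal higher in the first 3 and lower in the last. In PC3 miR-429 it was called at -0.59 ± 0.21 with overlapping arrays. In SKOV3 its changes with the 3 miRNAs lay between -0.13 and 0.07, none called. LAMA5 has 1 probe set, of a class that may cross-hybridise, so no other was compared.

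The laminin beta chains held the member that rose with miR-205 in all 3 lines, LAMB3, the beta chain of the hemidesmosome laminin (2.79% of tested genes were called higher in all 3 with miR-205, and 2.51% lower). LAMB3 read 11.72, 11.68 and 11.76 in HEY miR-205, against 9.48, 9.24 and 9.52 in HEY miR-NC. In SKOV3 it read 10.21, 10.19 and 10.24 with miR-205, against 9.10, 9.29 and 9.25 with miR-NC. In PC3 it read 10.19, 10.19 and 10.34 with miR-205, against 8.39, 8.39 and 8.64 with miR-NC. No miR-205 array overlapped with its miR-NC arrays. The changes were 2.31 ± 0.24 (adjusted p = 9.78e-11), 1.00 ± 0.24 (adjusted p = 0.00133) and 1.77 ± 0.24 (adjusted p = 9.84e-08), and they differed between lines (F-test adjusted p = 0.00313). GAPDH 5′ signal was higher in HEY miR-205 and PC3 miR-205. LAMB3 (GRCh38.p14, chr1:209614870-209652425) has 1 such probe set, so no second one was compared.

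With miR-429, LAMB3 read 10.35, 10.34 and 10.08 in SKOV3, a rise of 1.04 ± 0.24 (adjusted p = 0.00102), and it rose by 0.85 ± 0.24 in HEY. In PC3 miR-429 it differed by 0.05 ± 0.24, with an F-test adjusted p of 0.0214 for the difference between lines. With miR-203a it rose in PC3 (1.80 ± 0.24) and differed by 0.02 ± 0.24 in SKOV3.

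LAMB2, the beta chain of mature basement membranes in muscle and kidney, read 9.17, 8.70 and 8.73 in HEY miR-205, against 6.19, 5.96 and 6.04 in HEY miR-NC. In PC3 it read 9.27, 8.79 and 8.98 with miR-203a and 8.81, 9.08 and 9.16 with miR-205, against 6.92, 6.47 and 7.07 with miR-NC. None of these groups overlapped with miR-NC, and the rises were 2.81 ± 0.23 (adjusted p = 2.42e-13), 2.19 ± 0.23 (adjusted p = 2.92e-10) and 2.19 ± 0.23 (adjusted p = 3.89e-10). LAMB2 also rose in HEY miR-429 (0.73 ± 0.23). GAPDH 5′ signal was higher in the first 3 comparisons and lower in HEY miR-429. In PC3 miR-429 LAMB2 was called at -0.55 ± 0.23 with overlapping arrays, and after centring neither it nor LAMA5 was called lower. In SKOV3 LAMB2 was called with no miRNA, at -0.10, -0.39 and -0.42 for miR-203a, miR-205 and miR-429. LAMB2 too has 1 probe set, of a class that may cross-hybridise, so no other was compared.

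LAMB1, the most widely expressed beta chain, read 9.84, 9.96 and 9.96 in SKOV3 miR-205, against 8.69, 8.92 and 9.05 in SKOV3 miR-NC, without overlap. The rise of 1.03 ± 0.35 (adjusted p = 0.024) was lost in 4 of 6 refits, without SKOV3 miR-NC replicate 1 or 2 or SKOV3 miR-205 replicate 2 or 3 (adjusted p up to 0.0906), after quantile normalization (0.0548) and with the mean of both probe sets (0.0684). Its SE is the widest among the members: the fit estimates 1 spread from all 45 arrays, and LAMB1 had an SD of 1.68 on those labelled untransfected HEY. The second LAMB1 probe set gave 0.74 in SKOV3 miR-205, 1.30 in HEY miR-205, 1.35 in PC3 miR-205 and 1.07 in PC3 miR-203a. The one used gave 0.40 in HEY miR-205, 0.79 in PC3 miR-205 and 0.40 in PC3 miR-203a, none called. In HEY miR-429 the second gave 1.02, called higher, and the one used -0.72, not called.

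The gamma chain LAMC1, shared by most laminins, was called lower in 5 comparisons on the probe set used, but its 2 probe sets went opposite ways in HEY and PC3. The probe set used gave -1.13 in HEY miR-205, -0.91 in PC3 miR-203a, -0.65 in PC3 miR-205 and -0.98 in HEY miR-429. The other gave 1.63, 0.80, 0.81 and 0.39 in the same order, each called higher. In HEY miR-203a the probe set used gave -0.03 and the other 0.51, called higher, and in PC3 miR-429 they gave -0.23 and 0.18, not called. In SKOV3 miR-429 both were called lower, by 0.88 ± 0.13 and by 0.57. LAMC1 read 11.04, 10.99 and 11.09 there, against 11.91, 11.96 and 11.89 in SKOV3 miR-NC. LAMC3, a dim gamma chain, was called against miR-NC only in HEY miR-429, at -0.78 ± 0.18 with both means near background.

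The members ITGA3, ITGB4, LAMA5, LAMB2 and LAMB3 were set beside the GAPDH 5′ signal after their values had been seen, so their counts are a description and support no link. In the 3 comparisons where that signal was higher, 14 of their 15 results were called higher, where 33.7% (HEY miR-205), 31.2% (PC3 miR-203a) and 28.8% (PC3 miR-205) of all tested genes were. ITGB4 in HEY miR-205 (-0.18) was the exception. In HEY miR-429, where the signal was lower, ITGA3 (0.66), LAMA5 (0.57), LAMB2 (0.73) and LAMB3 (0.85) were called higher as well. PC3 miR-205 and PC3 miR-203a, which both lie above PC3 miR-NC in the signal but differ by -1.29 in it, were also set against each other. There 6 of 27 members were called, 4 higher (background 12.9%) and 2 lower (12%), for a background of 24.8% in either direction.

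Between those PC3 groups the 5 genes were close, ITGB4 excepted. LAMB2, ITGA3 and LAMB3 differed by 0.00, -0.10 and -0.03 for miR-205 minus miR-203a, and LAMA5 by -0.40, none called. LAMA1 read 5.95, 5.66 and 5.90 with miR-205, against 4.43, 4.67 and 4.75 with miR-203a, a difference of 1.22 ± 0.18 (adjusted p = 3.62e-06) with the second mean near background. ITGA5 was higher with miR-205 by 0.76 ± 0.17 (adjusted p = 0.00063), at 9.12, 9.11 and 9.12 against 8.56, 8.47 and 8.03 with miR-203a. ITGB2 and ITGB4 were lower with miR-205, with differences of -1.18 ± 0.26 (adjusted p = 0.0008) for ITGB2 and -0.88 ± 0.26 (adjusted p = 0.0103) for ITGB4. The ITGB4 call was lost without PC3 miR-203a replicate 1 or PC3 miR-205 replicate 2 (adjusted p up to 0.0616), and its probe set outside the cross-hybridising classes gave 0.25.

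**Figure D4:**
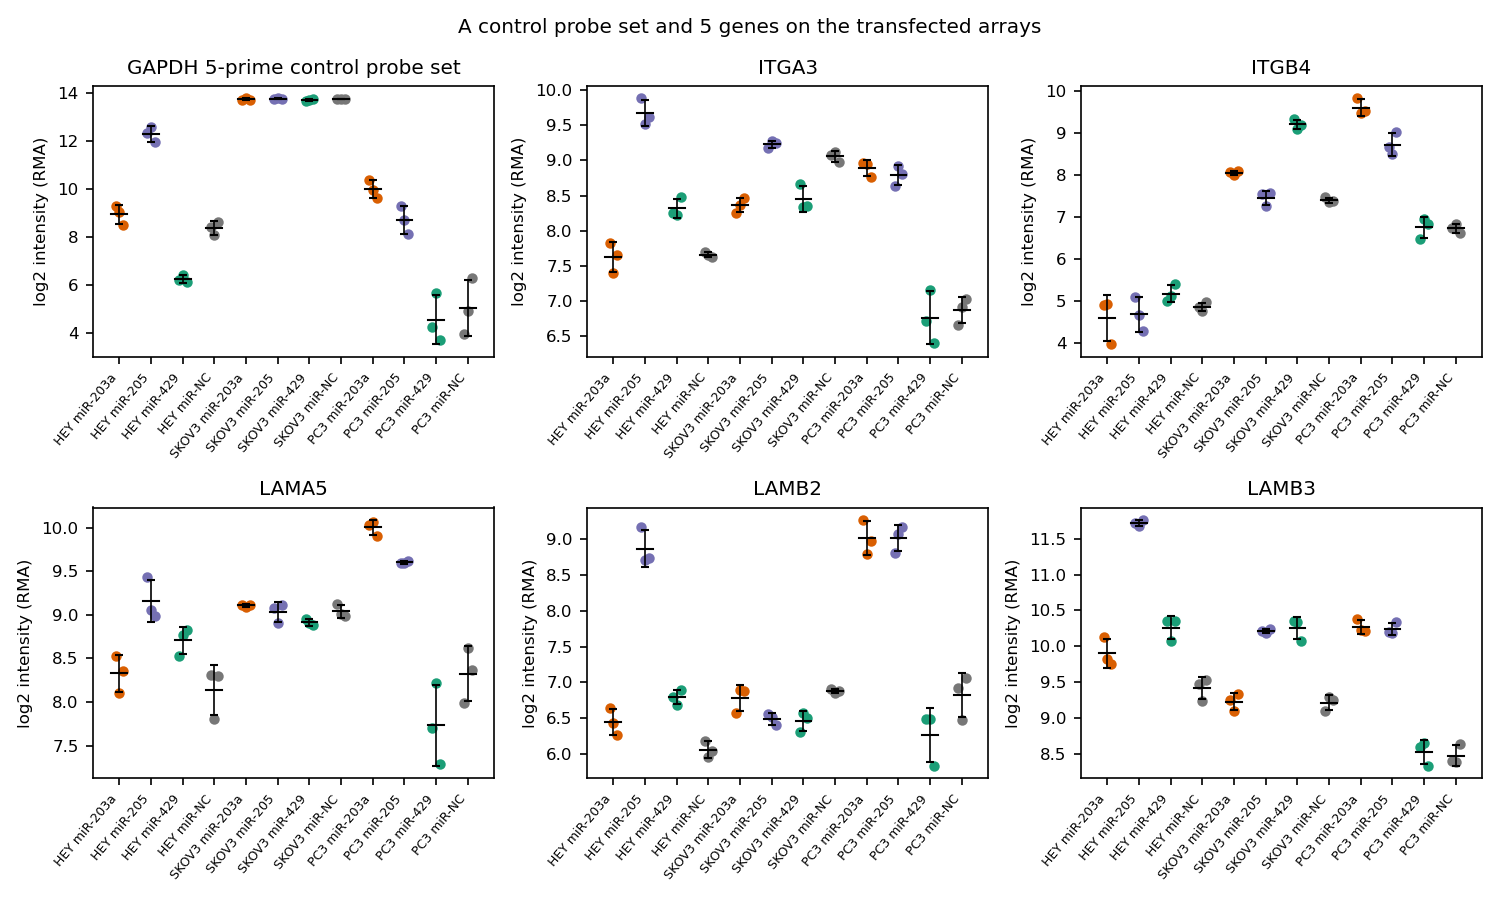
Log2 intensity on each transfected array of the GAPDH 5′ control probe set and of ITGA3, ITGB4, LAMA5, LAMB2 and LAMB3, by line and treatment, with bars at the mean and whiskers of 1 SD (n = 3). The control probe set lies near 13.7 on all SKOV3 arrays and spreads widely in HEY and PC3. By group mean, ITGA3, LAMA5, LAMB2 and LAMB3 are highest among the HEY groups with miR-205. Among the PC3 groups they are highest with miR-203a and miR-205.

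How far the lines differed in their response was tested by an F-test on the changes against miR-NC. It was passed by 17 of 27 members for miR-203a (background 45%), 21 for miR-205 (69.8%) and 18 for miR-429 (66.6%). For miR-203a, the 3 lowest adjusted p-values belonged to ITGA3 (1.30e-08), ITGB4 (3.08e-08) and LAMB2 (6.85e-07), each highest in PC3. For miR-205, ITGA6 had 8.88e-11, with 1.91 in SKOV3, 0.17 in HEY and 0.43 in PC3. For miR-429 the lowest values were those of ITGAE (1.54e-08) and ITGB5 (4.67e-07), while the fall of ITGA1 had 0.0477 and ITGA2 was not called. No member was called alike in all 3 lines with miR-203a (background 1.25% higher and 1.44% lower).

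Without any of the 3 miRNAs the lines already differed. Under miR-NC, 13 members were higher (35% of all tested genes) and 8 lower (43.5%) in SKOV3 than in HEY, 21 in all (78.5%). In PC3 9 were higher (25.5%) and 6 lower (31.2%) than in HEY, 15 in all (56.7%), and 11 were higher (44.2%) and 10 lower (36.9%) than in SKOV3, 21 in all (81.1%). LAMA1 marked HEY: it read 3.25, 3.21 and 3.57 in SKOV3 and 5.26, 4.39 and 4.97 in PC3, against 8.55, 8.15 and 8.61 in HEY. The differences were -5.09 ± 0.18 (adjusted p = 7.77e-24) and -3.56 ± 0.18 (adjusted p = 8.47e-19), with the first group of each pair near background. LAMA4 read 7.98, 7.81 and 7.74 in PC3, against 4.68, 3.93 and 4.27 in SKOV3, and it averaged 7.80 ± 0.39 in HEY (SD). PC3 exceeded SKOV3 in it by 3.55 ± 0.24, and SKOV3 differed from HEY by -3.50 ± 0.24.

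ITGA2 read 10.57, 10.50 and 10.26 in PC3, against 6.89, 6.96 and 7.01 in SKOV3, a difference of 3.49 ± 0.16 (adjusted p = 5.41e-21), or 11.3-fold. ITGAE differed by -2.29 ± 0.16 for PC3 minus SKOV3, at 9.28, 8.95 and 9.14 in PC3, and SKOV3 exceeded HEY in it by 2.33 ± 0.16. ITGA3 was 4.59-fold lower in PC3 than in SKOV3 (-2.20 ± 0.22). ITGA4 was higher in PC3 than in HEY by 2.80 ± 0.17 and ITGA10 by 2.10 ± 0.20, both near background in HEY. ITGB4 was higher in SKOV3 (2.54 ± 0.26) and in PC3 (1.86 ± 0.26) than in HEY, where it was near background. On its probe set outside the cross-hybridising classes the first difference was 0.16 and not called, and the second turned to -0.60. GAPDH 5′ signal differs between these groups too (given above), and its part was not tested.

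**Figure D5:**
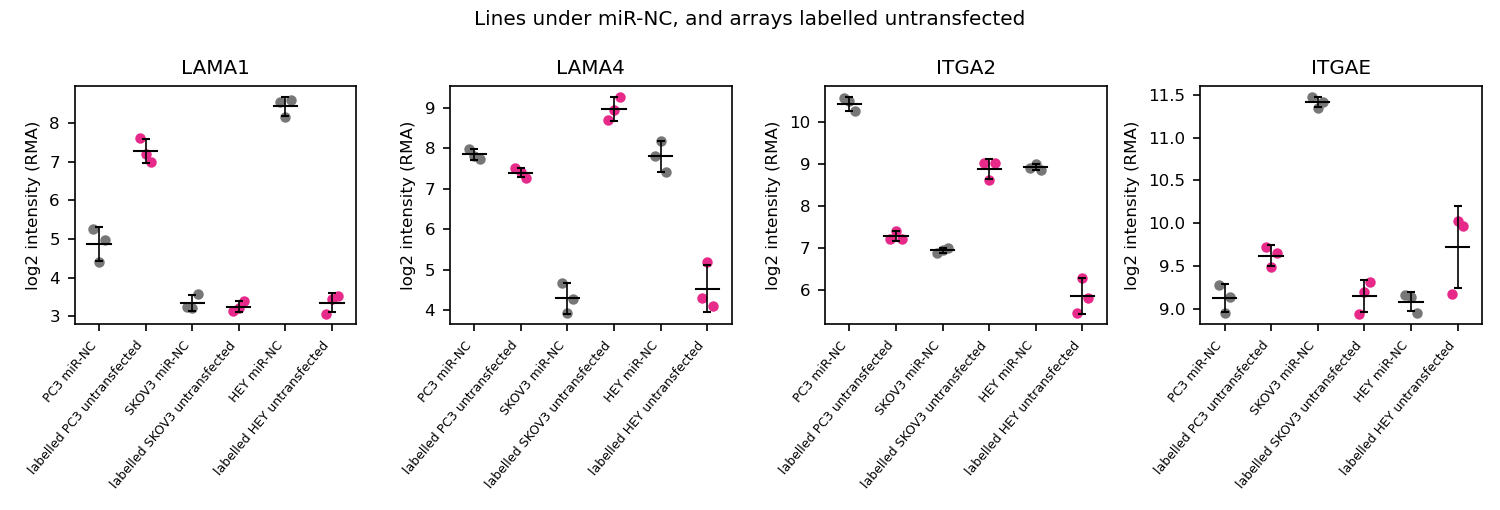
Log2 intensity of LAMA1, LAMA4, ITGA2 and ITGAE on each miR-NC array (grey) and each array labelled untransfected (pink) of PC3, SKOV3 and HEY, with bars at the mean and whiskers of 1 SD (n = 3). LAMA1 is high in HEY miR-NC and on the arrays labelled untransfected PC3, and LAMA4 is near background in SKOV3 miR-NC but not on the arrays labelled untransfected SKOV3.

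Other genes of integrin biology came from lists of related genes. Outside the 30, the integrin subunit ITGB8, which with ITGAV activates latent TGF-beta, was called higher in all 9 comparisons. In SKOV3 it averaged 9.52 ± 0.44 with miR-203a, 9.93 ± 0.20 with miR-205 and 10.08 ± 0.13 with miR-429, against 6.30 ± 0.22 with miR-NC (SD, n = 3), changes of 3.22 ± 0.30, 3.63 ± 0.30 and 3.78 ± 0.30. Its changes in HEY and PC3 ran from 0.76 to 2.12. In each line the 3 comparisons share the miR-NC arrays, and the proportion of all tested genes called higher in all 9 was not computed.

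Of 14 integrin ligands other than laminins, 4 were higher (21.1% of all tested genes) and 4 lower (35.8%) with miR-429 in HEY, 4 (15%) and 2 (7.24%) in SKOV3, and 0 (16.4%) and 3 (29.5%) in PC3. FN1, which encodes fibronectin, averaged 10.04 ± 0.23 with miR-429 in HEY, against 11.65 ± 0.08 with miR-NC. It changed by -1.61 ± 0.23 in HEY, -1.69 ± 0.23 in SKOV3 and -1.59 ± 0.23 in PC3. CDH1, the E-cadherin that the ITGAE integrin binds, averaged 8.59 ± 0.17 in SKOV3 miR-429, against 4.03 ± 0.09 in SKOV3 miR-NC, a change of 4.56 ± 0.46 above a near-background level. With miR-203a, 0 of 14 ligands were higher (5.87%) and 2 lower (7.32%) in HEY, 1 (7.11%) and 1 (4.91%) in SKOV3, and 3 (31.2%) and 4 (25%) in PC3. With miR-205, 3 were higher (33.7%) and 4 lower (32.3%) in HEY, 5 (16.9%) and 0 (8.83%) in SKOV3, and 6 (28.8%) and 2 (19.7%) in PC3.

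Of 24 integrin activators, adaptors and kinases, 3 were higher (5.87% of all tested genes) and 0 lower (7.32%) in HEY miR-203a, 1 (7.11%) and 3 (4.91%) in SKOV3 miR-203a, and 10 (31.2%) and 3 (25%) in PC3 miR-203a. With miR-205 the counts were 15 higher (33.7%) and 5 lower (32.3%) in HEY, 4 (16.9%) and 3 (8.83%) in SKOV3, and 11 (28.8%) and 3 (19.7%) in PC3. With miR-429 they were 9 higher (21.1%) and 9 lower (35.8%) in HEY, 3 (15%) and 6 (7.24%) in SKOV3, and 4 (16.4%) and 8 (29.5%) in PC3. The kindlin gene FERMT2 changed by -1.77 ± 0.10 in SKOV3 miR-205 and the kinase gene SRC by -1.89 ± 0.25 in SKOV3 miR-203a.

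Of 14 basement membrane genes and laminin partners, 2 were higher (5.87% of all tested genes) and 1 lower (7.32%) in HEY miR-203a, 0 (7.11%) and 2 (4.91%) in SKOV3 miR-203a, and 5 (31.2%) and 5 (25%) in PC3 miR-203a. With miR-205, 6 (33.7%) were higher and 5 (32.3%) lower in HEY, 2 (16.9%) and 0 (8.83%) in SKOV3, and 4 (28.8%) and 5 (19.7%) in PC3. With miR-429 it was 3 (21.1%) and 8 (35.8%) in HEY, 1 (15%) and 2 (7.24%) in SKOV3, and 1 (16.4%) and 5 (29.5%) in PC3. The collagen IV chain gene COL4A1 changed by -1.39 ± 0.11 in SKOV3 miR-203a, and COL4A6 by -2.66 ± 0.20 in HEY miR-429. The median changes of the ligands, of the activators, adaptors and kinases and of the basement membrane genes lay between -0.45 and 0.55, against medians of all tested genes between -0.15 and 0.059.

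The members called alike in all 3 lines have promoters that differ in the E-box bound by ZEB and SNAI factors. It was searched as CACCTG and its reverse complement CAGGTG in 250 bases before to 50 after each start (RefSeq, GRCh38.p14), and matches are in capitals. The windows of ITGA1, which fell with miR-429, and ITGA2, which rose, have none. ITGA6 has 2 and LAMB3 has 1.
ITGA1, chr5:52787666-52787965, plus strand: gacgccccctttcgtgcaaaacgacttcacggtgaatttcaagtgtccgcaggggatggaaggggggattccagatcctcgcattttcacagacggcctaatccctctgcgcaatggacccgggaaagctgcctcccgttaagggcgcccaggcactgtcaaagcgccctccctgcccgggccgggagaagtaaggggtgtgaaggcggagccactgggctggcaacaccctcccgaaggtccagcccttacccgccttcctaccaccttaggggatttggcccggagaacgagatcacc
ITGA2, chr5:52989102-52989401, plus strand: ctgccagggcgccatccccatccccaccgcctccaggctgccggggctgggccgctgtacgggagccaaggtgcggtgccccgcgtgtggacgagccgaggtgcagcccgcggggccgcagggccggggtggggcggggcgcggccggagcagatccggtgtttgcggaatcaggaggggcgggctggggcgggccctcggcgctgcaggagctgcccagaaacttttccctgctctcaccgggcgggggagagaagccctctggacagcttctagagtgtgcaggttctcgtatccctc
ITGA6, chr2:172427086-172427385, plus strand: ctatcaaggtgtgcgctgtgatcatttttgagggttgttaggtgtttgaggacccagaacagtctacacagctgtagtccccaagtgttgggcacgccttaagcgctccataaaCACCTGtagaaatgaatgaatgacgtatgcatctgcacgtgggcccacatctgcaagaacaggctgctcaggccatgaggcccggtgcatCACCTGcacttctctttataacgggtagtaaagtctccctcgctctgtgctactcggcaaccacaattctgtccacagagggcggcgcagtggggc
LAMB3, chr1:209652376-209652675, minus strand: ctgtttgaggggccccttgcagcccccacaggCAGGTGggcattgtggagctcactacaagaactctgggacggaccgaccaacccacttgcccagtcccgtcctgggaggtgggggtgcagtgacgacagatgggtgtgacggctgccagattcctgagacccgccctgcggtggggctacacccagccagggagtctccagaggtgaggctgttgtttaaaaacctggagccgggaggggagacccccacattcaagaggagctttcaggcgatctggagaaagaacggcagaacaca
Of 22 members in the promoter table, 6 (27.3%) hold a match, namely ITGA11, ITGA6, ITGB6, LAMA3, LAMA5 and LAMB3, against 5625 of 27305 promoters in all (20.6%). The GC content of the 4 windows printed is 61.67% for ITGA1, 72.67% for ITGA2, 53% for ITGA6 and 61.33% for LAMB3. A match is a description of the letters in this window only.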

How the data were processed

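Gene expression was measured on 45 arrays of 54675 probe sets. The values are log2 intensities as deposited by the authors, normalized with RMA (version not given) per the submitters' processing notes, from RNA amplified from the 3′ end and biotin labelled per the labels' protocols. Background handling beyond this is not given in the sources used here, and values near background understate changes. Array medians ran from 4.49 to 4.98. With 3 arrays per group, precision is set by their number.

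Probe sets were named through the platform annotation, with symbols updated by Entrez identifier: 41097 carry 1 symbol, 1801 several and 11777 none, and only those with 1 were used. Group means of all 15 groups were fitted together with limma 3.58.1 (lmFit, then eBayes) under R 4.3.3. Contrasts and moderated F-tests were adjusted over 15511 genes by Benjamini-Hochberg, with a threshold of 0.05. The procedure was tested on simulated data. Tables and figures used Python 3.11.15, pandas 2.3.3, numpy 2.4.6 and matplotlib 3.10.9.

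Per-array values are given for up to 4 called members per comparison with the largest changes and no overlap of arrays, and for members called alike in all 3 lines. Other members are given by counts, ranges and single values, and those described further were chosen after their values were seen. Of each other list, up to 2 called genes per comparison could be named. The members and lists were chosen with earlier results of these data known. Alternatives were another scaling, filter, probe set rule, prior, control group, a fit per line, a replicate block, and leaving out arrays.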

Additional observations from a re-analysis of the deposited data

Results flagged for a closer look

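ITGA3 responded differently to miR-203a in the 3 lines (limma F-test, adjusted p = 1.3e-08): its log2 change against miR-NC was -0.03 in HEY, -0.70 in SKOV3 and 2.03 in PC3, and the GAPDH 5′ control signal differed by 4.95 in PC3 and by 0.58 in HEY, while in SKOV3 it may be at the top of its range. ITGAE responded differently to miR-429 (limma F-test, adjusted p = 1.54e-08), with a rise of 1.33 in HEY, a change of -0.51 in SKOV3 and an uncalled -0.17 in PC3.

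In the arrays that enter no comparison, those labelled untransfected HEY averaged 8.82 for ITGB4, against 4.85 in HEY miR-NC, and those labelled untransfected SKOV3 averaged 8.96 for LAMA4, against 4.29 in SKOV3 miR-NC. The arrays labelled untransfected HEY correlated best with SKOV3 miR-NC. Those labelled untransfected SKOV3 also correlated best with SKOV3 miR-NC, as their label says, but their HOXB13 and ERBB2 levels go against it.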

How the results depend on the processing

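Of the counts of called members, 149 of 156 stayed within 1.5 times under the 11 alternative settings other than leaving out an array, and 523 of 548 results of named members kept their direction and call. Results that a setting could not give are not among the 548. With probe sets ending in _x_at or _s_at left out, 45 of 57 named results could be compared, and those of ITGA3 and LAMB2 could not. In HEY miR-203a a separate fit for each line called 1 member in place of 4. With probe sets ending in _x_at or _s_at left out, 20 members were tested: 7 were called in PC3 miR-203a, 11 in PC3 miR-205 and 6 in PC3 miR-429, and 7 differed between lines with miR-203a, against 14, 18, 10 and 17 among 27. ITGB4 then turned to -0.12 in SKOV3 miR-429, to -0.60 between PC3 miR-NC and HEY miR-NC and to 0.25 between PC3 miR-205 and PC3 miR-203a, and ITGB5 to -0.061 in PC3 miR-429. With the other of PC3 miR-203a and PC3 miR-205 as the control, 6 members were called in each, and LAMB2 with miR-203a became -0.0043, ITGB4 with miR-205 -0.88, ITGA3 with miR-205 -0.10 and LAMB3 with miR-205 -0.029. The causes were not tested. Leaving out 1 array at a time gave 1 to 4 members in HEY miR-203a (1 without HEY miR-NC replicate 3, 2 without HEY miR-203a replicate 1 or 2), 4 to 5 in SKOV3 miR-203a (4 without SKOV3 miR-203a replicate 2 or any 1 of the SKOV3 miR-NC arrays) and 4 to 7 in SKOV3 miR-205 (4 without SKOV3 miR-NC replicate 2), against 4, 7 and 7 with all arrays. Of 57 named results, 50 stayed called in every such refit.

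Replicate numbers did not pair the samples: deviations of same-numbered arrays correlated at -0.15 to 0.13, over 0.1 in 2 of 39 pairs. With the replicate block, all 16 counts stayed within 1.5 times (4 in HEY miR-203a and 18 in PC3 miR-205) and all 57 named results kept their call. Of the 101 called results, 14 had a group mean near background, so their size is uncertain.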
